A study of Mus musculus with 12 samples.

Results

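The genes described here encode the ephrins and their Eph receptors, the semaphorins and plexins, the Slits and Robos, and the netrins and Unc5 receptors, proteins first known for steering growing axons. They were taken from the deposited count table by symbol, as protein-coding rows named for these families, with Efnb2, Unc5b and Robo4 left out. This gave 57 of the 19547 genes in the table: 11 Eph receptors, 4 A ephrins, 1 B ephrin (Efnb1), 20 semaphorins, 9 plexins, 2 Robos, 3 Slits and 7 genes with netrin or Unc5 names. Of these 7, Unc50 and Unc5cl share only the start of the name: Unc50 is a Golgi membrane protein and Unc5cl resembles the end of the Unc5 receptors. Both are counted among the 57, since the choice was made by name, but are not guidance cues or netrin receptors. All 57 passed the filter on low counts, and their lowest count in any library was 8.

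The tissue is fat grafted for 8 weeks in C57BL/6 wild-type mice, labelled with an age of 16 weeks, in 3 groups of 4 libraries. Control grafts are labelled only as such. CAL (cell-assisted lipotransfer) grafts had ASC added, in this field most often stem or stromal cells of fat, and CAL_Dll4i grafts had ASC added together with inhibition of Dll4, an endothelial Notch ligand. The labels do not say what agent inhibited Dll4, where the ASC or the fat came from, or whether each library is its own animal, so the tests below see only the spread between these 12 libraries, which may be technical. The RNA comes from whole grafts, in which fewer cells of a type and less RNA per cell cannot be told apart.

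As background, Eph receptors are tyrosine kinases that bind ephrins on a neighbouring cell, A ephrins held by a lipid anchor and B ephrins spanning the membrane, and both partners can signal. Class 3 semaphorins are secreted and act through neuropilins joined to plexins, while most other semaphorins sit in the membrane and bind plexins directly. Slits bind Robo receptors, and netrins bind Dcc, neogenin and Unc5 receptors. Outside the nervous system these pairs set boundaries between arteries and veins, repel or attract sprouting endothelium, and move leukocytes. In fat, macrophage Slit3 has been tied to sympathetic nerve supply, and netrin 1 and class 3 semaphorins to the retention or recruitment of macrophages.

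Total counts ran from 55883051 to 70804141 per library, and library pairs correlated across genes at 0.975 to 0.989 within groups and 0.970 to 0.990 between them. Dll4 RNA itself ran from 4.97 to 6.95 CPM (counts scaled to a common library size) in control, 3.01 to 4.22 in CAL and 3.98 to 4.95 in CAL_Dll4i; its level does not check an inhibition of the protein. Adipocyte markers were present throughout, and the CPM summed over 10 of them ran from 877 to 1920 in control, 1990 to 2850 in CAL and 1490 to 1910 in CAL_Dll4i. The sum of 10 endothelial markers ran from 364 to 449, 287 to 445 and 349 to 426 in the same order. Skeletal muscle markers (3 of 7 listed were in the table) summed to 84.6 in CAL replicate 1, 169 in CAL replicate 2 and 316 in CAL_Dll4i replicate 3, and to 8.62 or less elsewhere. Keratinocyte markers (4 of 7 in the table) ran from 3.24 to 184 in control, 3.59 to 53.2 in CAL and 4.02 to 332 in CAL_Dll4i.

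Receptors of the plexin family made up the largest part of the guidance RNA. On the deposited TPM scale (which divides by transcript length and so lets genes be compared), the 9 plexins together held a median of 49.3% of the TPM summed over the 55 genes other than Unc50 and Unc5cl (43.4% to 50.9% over 12 libraries). The 20 semaphorins held 27.3%, the 3 Slits 14.6% and the 11 Eph receptors 4.77%, while the 4 A ephrins held 0.938% and Efnb1 0.427%. Plxna1, a receptor for class 3 and class 6 semaphorins, had the highest level at 213 TPM on average (196 to 231), and all its libraries lay above every other member's. Plxnb2, a receptor for class 4 semaphorins, followed at 145 (136 to 156) and Slit3, a secreted Robo ligand, at 143 (115 to 184), and these neighbours overlapped. Next came the leukocyte semaphorin Sema4d at 117 (99.8 to 129) and Plxnd1, the endothelial and macrophage receptor of Sema3e, at 98.1 (85.5 to 113), which also overlapped. The library kit captures exons with probes, and the part of probe capture in these levels was not tested.

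Some ligands and their receptors stood at very different levels. Plxnd1 was at 98.1 TPM while Sema3e, a ligand of Plxnd1 but not set here beside any others, ran from 0.493 to 3.07 over libraries. The Slit receptors Robo1 and Robo2 were at 11.4 and 0.230 TPM against 143 for Slit3, 19.6 for Slit2 and 0.645 for Slit1. Epha3, the Eph receptor with the highest level, was at 19.3 TPM, and Efna5, a ligand of Epha3, at 2.53. Ephb4, the receptor of venous endothelium, was at 11.6 TPM. Among netrins, Ntn4 of basement membranes was at 7.36, Ntn1 at 4.45 and Ntn3 at 0.421. In all, 7 members averaged at least 50 TPM, 11 lay between 10 and 50, 27 between 1 and 10, and 12 under 1, the lowest being Sema5b at 0.165.

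**Figure D1:**
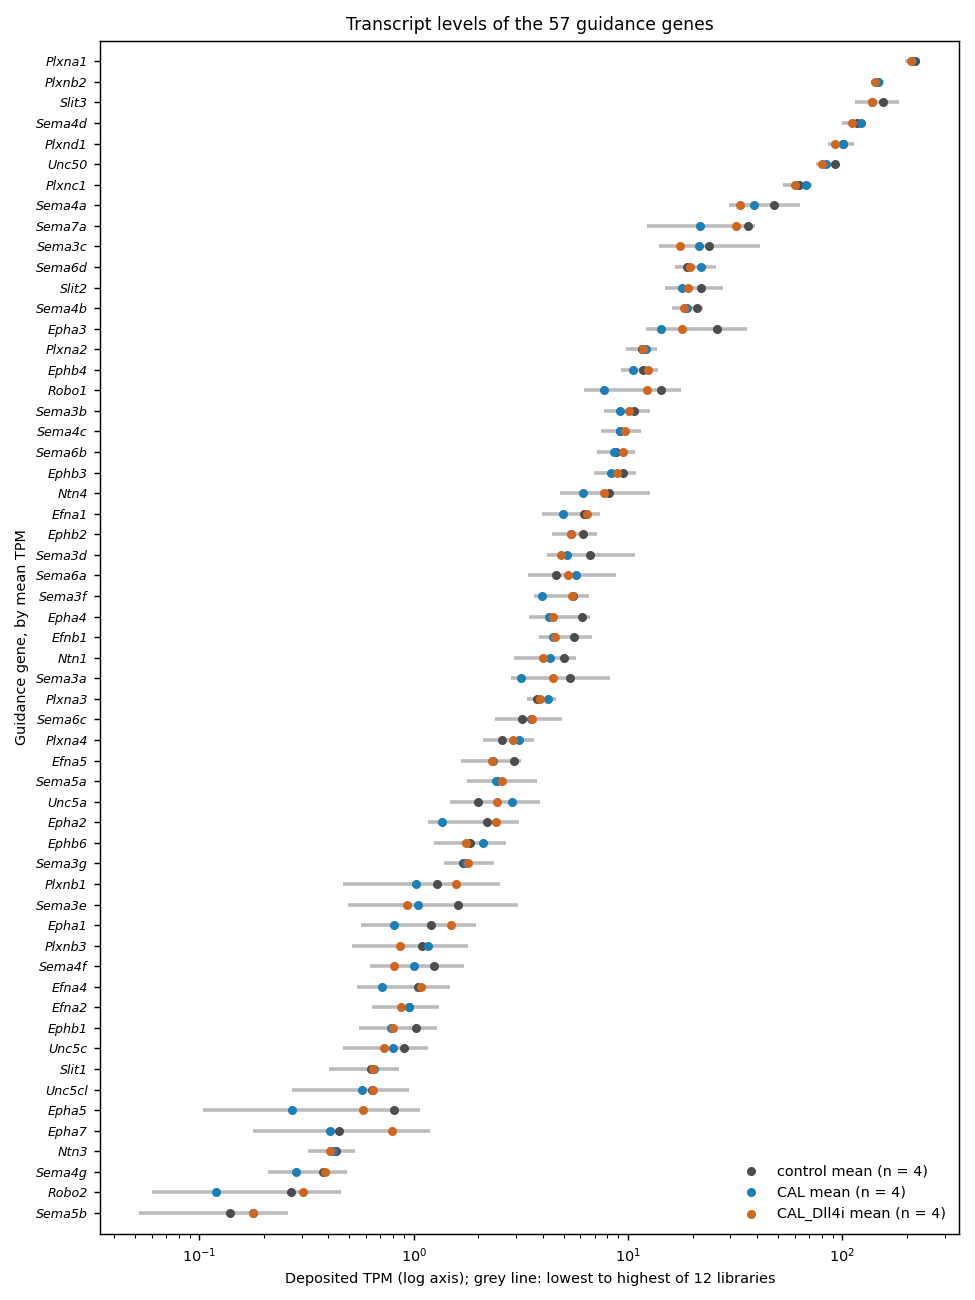
Deposited TPM (log axis) of the 57 genes, ordered by mean, with a dot for the mean of each group (n = 4) and a grey line from the lowest to the highest of the 12 libraries. Plxna1 stands apart at the top (196 to 231), and the grey lines widen among the low genes, such as Robo2 and Epha5.

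Abundant plexins varied little between libraries. Plxnb2, with 393 to 445 CPM, had the lowest coefficient of variation over the 12 libraries, at 4.73%, and Plxnd1 (253 to 317 CPM) had 7.43%. Sema4d, which acts on plexin B1 and on lymphocytes, ran from 183 to 249 CPM with means of 217 ± 25.9 in control, 229 ± 19.2 in CAL and 217 ± 6.49 in CAL_Dll4i (SD, n = 4 each), so the group means differed by less than the spread in control. The median member varied by 20.2%, against 13.5% for all 18551 genes tested. Members above 50% were Epha5 (64.8%), Robo2 (61.7%), Sema3e (60.7%) and Epha7 (55.7%), all of low level.

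CAL against control asks how grafts with added ASC differ from grafts without. Eph receptor and Robo RNA had lower estimates in CAL, plexin RNA did not, and no member passed the test over all genes. By the quasi-likelihood test of edgeR, with adjustment after Benjamini and Hochberg, 0 of the 57 and 0.00539% of all genes tested were called. At an unadjusted p under 0.05 by edgeR, 9 members (15.8%) were lower, against 7.57% of all genes, and 1 (1.75%) was higher, against 7.01%. DESeq2 called 5 members lower, 8.77% of the 57 against 1.49% of all genes, and 0 higher, against 1.83%, while voom with sample weights called 0 members and 0.388% of all genes. Estimates were below 0 for 37 members (64.9%), against 51.6% of all genes, and the median log2 fold change was -0.15 over the 57 and -0.01 over all genes. The groups did not overlap for 4 members, all lower in CAL (7.02%, against 3.75% of all genes lower and 3.61% higher): Epha5, Robo1, Sema3f and Sema7a. Counted in either direction, this share of members lies near that of all genes.

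By family, estimates were below 0 for 10 of 11 Eph receptors (median log2 fold change -0.37), both Robos, 3 of 4 A ephrins, 2 of 3 Slits and 11 of 20 semaphorins (median -0.13). They were above 0 for 7 of 9 plexins (median 0.08). Of the 7 genes with netrin or Unc5 names, 6 had estimates below 0 (median -0.15). Over the alternative settings, including 2 other scalings, the Eph receptor count stayed at 9 or 10 and its median between -0.46 and -0.19. The plexin median stayed between 0.02 and 0.13, while the plexins above 0 numbered 5 to 9. The semaphorin result was less stable, with 10 to 17 below 0 and a median between -0.24 and 0. The standard errors of single members' log2 fold changes ran from 0.05 to 0.52 with a median of 0.19. A difference of several standard errors could still miss the adjusted threshold by edgeR, as for Epha5 (-1.81 ± 0.35). A member that was not called is therefore not shown to be unchanged.

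Epha5, an Eph receptor best known from the brain and here of low level, had the smallest p of the members. Its CPM in replicates 1 to 4 was 1.99, 1.97, 3.02 and 0.743 in control, 0.602, 0.395, 0.665 and 0.532 in CAL and 1.34, 0.835, 1.14 and 1.15 in CAL_Dll4i. All 4 CAL libraries lay below the lowest of the others, control replicate 4, by a narrow margin. The log2 fold change of CAL against control was -1.81 ± 0.35 (SE), or 3.50-fold lower, with edgeR's Benjamini-Hochberg adjusted p = 0.109. DESeq2 gave adjusted p = 0.000709, and over 23 alternatives the adjusted p ran from that value to 0.380 without the 3 libraries with muscle RNA. That setting keeps only replicates 3 and 4 of CAL, here and for the genes below, so muscle RNA and lost replicates cannot be told apart in it. Without control replicate 4 edgeR called it (log2 fold change -2.08, adjusted p = 0.0321). On the log2(TPM + 1) scale, which shrinks changes of low genes, the difference was -0.50.

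Robo1, the Slit receptor with the higher level, stood at 39.4, 58.0, 67.1 and 53.5 CPM in control replicates 1 to 4 and at 23.0, 36.3, 34.8 and 24.2 in CAL. In CAL_Dll4i it stood at 46.9, 60.5, 31.7 and 55.2 CPM. Every CAL library lay below every control, and CAL_Dll4i replicate 3, a library with muscle RNA, lay in the CAL range while the other 3 lay in the control range. The log2 fold change of CAL against control was -0.88 ± 0.23, or 1.84-fold lower, with edgeR's Benjamini-Hochberg adjusted p = 0.174. Its adjusted p over the alternatives ran from 0.00785 by DESeq2 to 0.386 without CAL replicate 1. Of its ligands, Slit3 was at 317 ± 43.9, 285 ± 39.1 and 299 ± 40.5 CPM and Slit2 at 91.5 ± 20.4, 76.3 ± 10.1 and 84.2 ± 8.39 in control, CAL and CAL_Dll4i (SD, n = 4), and the group means differed by less than the SD of control.

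Sema7a, a lipid-anchored semaphorin that binds plexin C1 and integrin beta 1, stood at 43.2, 53.0, 48.5 and 51.3 CPM in control replicates 1 to 4 and at 30.3, 31.5, 40.6 and 16.7 in CAL. In CAL_Dll4i it stood at 55.1, 47.7, 32.3 and 47.6 CPM. CAL replicate 4 was the lowest library and CAL_Dll4i replicate 3 again the lowest of its group. The log2 fold change of CAL against control was -0.72 ± 0.23, with edgeR's Benjamini-Hochberg adjusted p = 0.215. Over the alternatives its adjusted p ran from 0.0440 by DESeq2 to 0.479 without the 3 libraries with muscle RNA. Its receptor Plxnc1 overlapped between all groups, at 158 to 203 CPM (control), 188 to 216 (CAL) and 173 to 219 (CAL_Dll4i).

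Sema3f, a secreted ligand of neuropilin 2, differed by a small amount but with little spread. It stood at 7.89, 7.96, 8.57 and 8.89 CPM in control, 6.06, 6.54, 5.91 and 5.61 in CAL, with 10.5, 7.75, 6.73 and 9.26 in CAL_Dll4i. CAL lay below both other groups without overlap. The log2 fold change of CAL against control was -0.47 ± 0.13, or 1.38-fold lower (edgeR's Benjamini-Hochberg adjusted p = 0.178), and its adjusted p over the alternatives ran from 0.0301 by DESeq2 to 0.376 without CAL replicate 1. Nrp2, its co-receptor, stood at 276 ± 17.5, 256 ± 25.9 and 264 ± 22.6 CPM in control, CAL and CAL_Dll4i.

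The DNA before the start sites of 3 of these 4 genes is shown because they are the members whose CAL and control libraries did not overlap; the table of start sites used here had an entry for these 3. Each run is the 250 bases before a RefSeq transcript start on GRCm38.p6 (in each case one that lies inside the span of the gene), 5′ to 3′ on the gene's strand, with capitals at matches to GGGCGG, the core of the GC box.
Epha5 promoter, chr5:84417383-84417632, reverse strand: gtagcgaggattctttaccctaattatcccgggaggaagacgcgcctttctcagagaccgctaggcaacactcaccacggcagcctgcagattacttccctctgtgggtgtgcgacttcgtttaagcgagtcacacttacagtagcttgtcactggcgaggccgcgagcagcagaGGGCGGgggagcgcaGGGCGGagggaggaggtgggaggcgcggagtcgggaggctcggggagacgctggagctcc
Robo1 promoter, chr16:72662899-72663148, forward strand: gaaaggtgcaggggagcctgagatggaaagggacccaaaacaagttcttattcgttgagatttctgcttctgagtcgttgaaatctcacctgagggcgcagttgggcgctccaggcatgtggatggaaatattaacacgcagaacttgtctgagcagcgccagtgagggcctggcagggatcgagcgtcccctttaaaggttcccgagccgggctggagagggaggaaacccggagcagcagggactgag
Sema7a promoter, chr9:57939862-57940111, forward strand: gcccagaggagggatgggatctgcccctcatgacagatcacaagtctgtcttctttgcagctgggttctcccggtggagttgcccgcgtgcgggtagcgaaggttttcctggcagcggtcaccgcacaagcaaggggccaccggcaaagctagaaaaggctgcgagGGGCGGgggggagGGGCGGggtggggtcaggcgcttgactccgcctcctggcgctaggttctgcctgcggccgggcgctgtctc
Epha5 held 2 GC box cores, starting 75 and 60 bases before the start, and Sema7a 2, at 84 and 71 bases. The window of Robo1 held none. Both strands were searched. Neither TGGGAA, the core letters of the site of the Notch factor RBPJ, nor CACGTG, the canonical E-box, nor TATAAA was found in the 3 windows. GGGCGG was found on either strand in 32.7% of 32851 RefSeq promoter windows of this length and TGGGAA in 21.6%. Over the 65 windows of the 50 members with an entry, 45 held GGGCGG and 11 held TGGGAA. The GC content of the 3 windows was 62.4% (Epha5), 56.0% (Robo1) and 66.4% (Sema7a), against a median of 52.4% over all windows.

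The other members at an unadjusted p under 0.05 in CAL against control were Epha3, Epha4, Epha2, Sema3a, Efnb1 and Unc5a. Epha3, a receptor of mesenchymal cells, stood at 39.8, 57.8, 83.2 and 60.7 CPM in control replicates 1 to 4, 28.4, 29.9, 45.8 and 32.3 in CAL, with 30.4, 54.9, 36.4 and 53.0 in CAL_Dll4i. One CAL library, replicate 3, exceeded the lowest control. Its log2 fold change was -0.83 ± 0.25 (edgeR's Benjamini-Hochberg adjusted p = 0.207, over the alternatives 0.0286 by DESeq2 to 0.608 without the 3 libraries with muscle RNA). Epha4, which binds ephrins of both classes, stood at 15.8 ± 2.11, 11.4 ± 2.33 and 12.2 ± 1.85 CPM in control, CAL and CAL_Dll4i (SD, n = 4), a log2 fold change of -0.48 ± 0.16 in CAL. Efnb1, a membrane ligand of EphB receptors, stood at 7.71 ± 1.30, 6.29 ± 0.595 and 6.61 ± 0.743 CPM in the same order (log2 fold change -0.29 ± 0.13 in CAL), and without control replicate 3 its estimate was -0.19.

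Unc5a, a netrin receptor, was the 1 member with a higher estimate in CAL at that threshold. It stood at 4.34, 3.77, 4.83 and 3.55 CPM in control and at 5.16, 5.42, 4.31 and 6.60 in CAL, with overlap between the groups. Its log2 fold change was 0.38 ± 0.15 (edgeR's Benjamini-Hochberg adjusted p = 0.272, over the alternatives 0.129 to 0.558). Exons of Unc5a share 34 bases with Hk3, a gene on the other strand, and whether counting used strand was not stated in the labels, so part of its counts is uncertain. The same holds for Plxna1, Efna4 and Sema4c, whose exons share 970, 168 and 334 bases with other genes. The netrin groups overlapped: Ntn1 stood at 11.9 ± 1.42, 10.4 ± 2.42 and 9.98 ± 2.59 CPM and Ntn4 at 8.11 ± 3.12, 6.23 ± 1.47 and 8.06 ± 1.38 in control, CAL and CAL_Dll4i (SD, n = 4). Unc5c stood at 3.48 ± 1.05, 3.13 ± 0.527 and 2.96 ± 0.814 CPM, and Unc50 at 45.6 ± 1.85, 41.7 ± 3.35 and 41.6 ± 0.877.

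**Figure D2:**
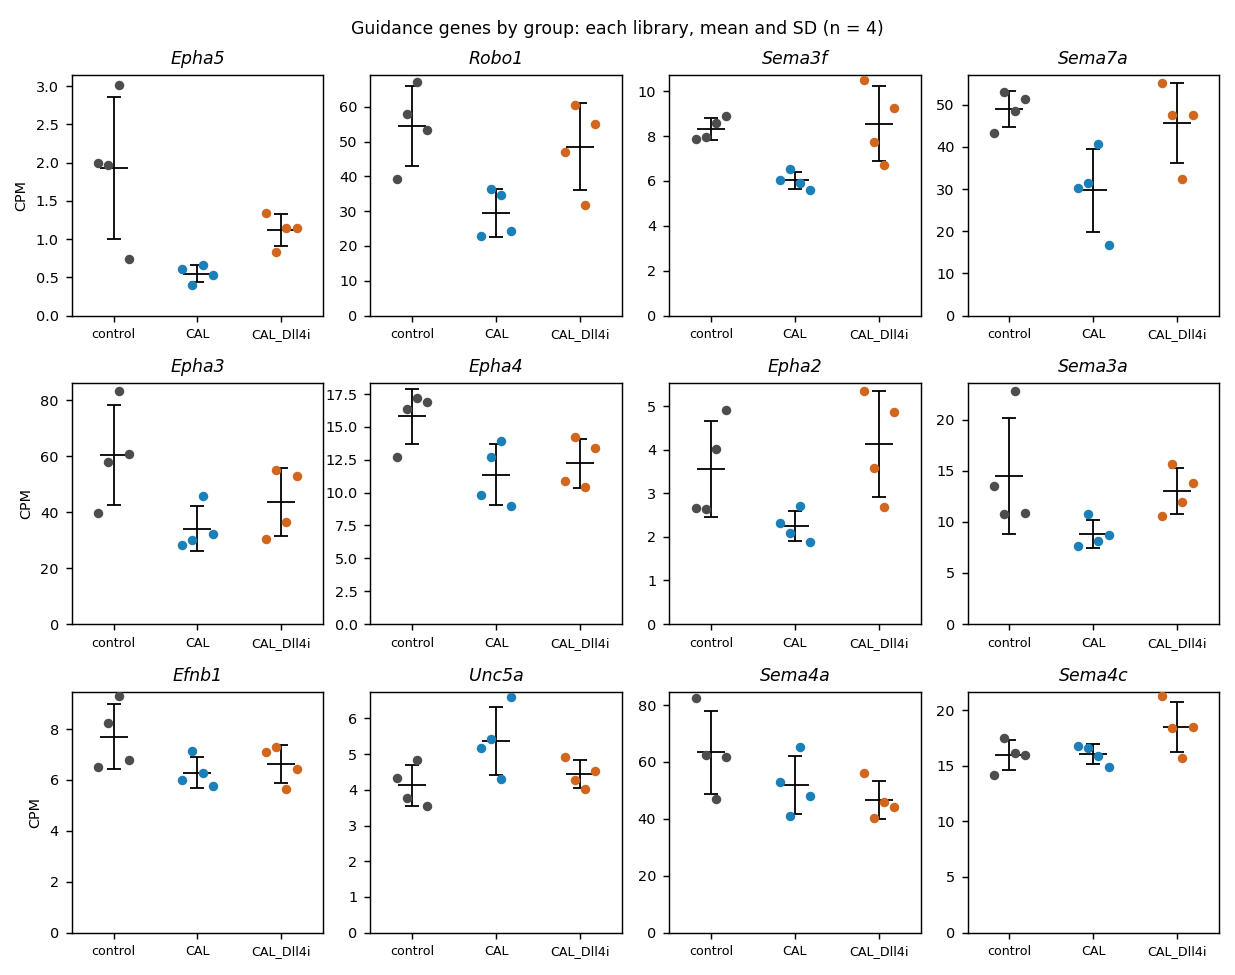
CPM of 12 guidance genes in each library (points) by group, with the group mean and SD (bars, n = 4), on linear axes from 0. In the top row the CAL points of Epha5, Robo1, Sema3f and Sema7a all lie below the control points, while Unc5a, Sema4a and Sema4c show overlapping groups.

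Markers of other cells differed between the same groups. The adipocyte marker sum was higher in every CAL library (1990 to 2850 CPM) than in any control (877 to 1920). The neutrophil sum of 6 markers ran from 206 to 381 CPM in control and 108 to 216 in CAL. Stromal markers, 8 in number, summed to 2870 to 3540 CPM in control and 2930 to 3540 in CAL. The keratinocyte sum ran from 3.24 to 184 CPM in control and 3.59 to 53.2 in CAL, with lower estimates for 3 of 4 markers. Estimates were also lower for 5 of 5 mammary epithelium markers, 6 of 8 mural markers and 6 of 10 endothelial markers. They were higher for 6 of 7 lymphatic markers. The mural, endothelial and lymphatic sums overlapped between the groups. The part of these shifts in the members' differences was not tested, and the adipocyte share and the added ASC cannot be told apart in this design.

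CAL_Dll4i against CAL asks what the inhibition adds to grafts with ASC. It uses the same CAL libraries as the comparison above, so the 2 sets of fold changes are not independent of each other. The edgeR test with Benjamini-Hochberg adjustment called 0 members and 0% of all genes, and so did voom with sample weights; DESeq2 called 0 members and 0.00539% of all genes. At an unadjusted p under 0.05 by edgeR, 11 members (19.3%) were higher with the inhibition, against 4.47% of all genes, and 0 were lower, against 2.95%. The groups did not overlap for 2 members, Sema3f and Epha5, both higher (3.51%, against 1.58% of all genes higher and 1.76% lower). In either direction this share too lies near that of all genes. Estimates were above 0 for 37 members (64.9%), against 51.3% of all genes. The median log2 fold change was 0.07 over the 57 and 0 over all genes.

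The 11 members were 4 Eph receptors (Epha1, Epha2, Epha5 and Ephb4), the A ephrins Efna1 and Efna4, the semaphorins Sema3a, Sema3f and Sema7a, and both Robos. The smallest adjusted p among them was 0.659 by edgeR with Benjamini-Hochberg adjustment. Without CAL replicate 4 or CAL_Dll4i replicate 4 the count was 6, and without CAL_Dll4i replicate 2 it was 7. Sema3f had a log2 fold change of 0.50 ± 0.13 (1.42-fold higher, SE), Robo1 of 0.72 ± 0.23, Sema7a of 0.62 ± 0.23 and Epha5 of 1.02 ± 0.35. Sema3a, the neuropilin 1 ligand, stood at 7.59, 10.8, 8.14 and 8.71 CPM in CAL replicates 1 to 4 and at 10.6, 15.7, 11.9 and 13.8 in CAL_Dll4i, a log2 fold change of 0.56 ± 0.23. In control it stood at 13.5, 10.8, 22.8 and 10.9 CPM, and replicate 3 carried much of its difference from CAL (-0.72 ± 0.23, or -0.41 without that library). Nrp1, its receptor subunit, had means of 358 ± 30.9 (control), 348 ± 12.5 (CAL) and 361 ± 30.0 CPM (CAL_Dll4i; SD, n = 4).

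Ephrin A1 and its receptor Epha2, which acts in epithelium and in sprouting endothelium, had higher estimates with the inhibition. Epha2 stood at 2.31, 2.08, 2.70 and 1.89 CPM in CAL replicates 1 to 4 and at 5.36, 3.59, 2.69 and 4.87 in CAL_Dll4i. Only CAL_Dll4i replicate 3 lay in the CAL range, and the log2 fold change was 0.88 ± 0.25. Control libraries stood at 2.67, 2.65, 4.02 and 4.91 CPM, a log2 fold change of -0.67 ± 0.25 for CAL against control. Efna1 stood at 3.60, 3.48, 2.53 and 2.69 CPM in CAL and 4.54, 4.33, 2.83 and 4.92 in CAL_Dll4i (log2 fold change 0.44 ± 0.18). Ephb4 stood at 21.9, 20.3, 17.7 and 16.6 CPM in CAL and 24.4, 24.5, 19.3 and 24.9 in CAL_Dll4i (0.28 ± 0.12), with 1 CAL_Dll4i library inside the CAL range.

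Markers of other cells differed between these groups too. The adipocyte sum was lower in every CAL_Dll4i library (1490 to 1910 CPM) than in any CAL library (1990 to 2850), with lower estimates for 10 of 10 markers. Estimates were higher for 6 of 6 neutrophil markers (sums of 199 to 277 against 108 to 216), 7 of 7 lymphatic markers (146 to 203 against 83 to 187) and 7 of 8 mural markers (414 to 531 against 327 to 440), with overlapping sums. At an unadjusted p under 0.05 by edgeR stood 1 adipocyte, 2 neutrophil, 1 lymphatic and 2 mural markers, and the part of these shifts in the members' differences was not tested.

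Epithelial RNA also differed between the same libraries. The keratinocyte sum was 5.89, 5.51, 53.2 and 3.59 CPM in CAL replicates 1 to 4 and 332, 122, 4.02 and 144 in CAL_Dll4i, and a sum of 5 mammary epithelium markers was 29.5, 9.45, 40.0 and 8.74 against 57.6, 20.9, 10.3 and 85.1. Epha1, an epithelial Eph receptor, stood at 1.33, 0.880, 1.49 and 0.776 CPM in CAL and at 2.75, 1.73, 1.20 and 2.86 in CAL_Dll4i, and its 3 highest values among these 8 libraries were in the 3 with most keratinocyte RNA. Plxnb1, the Sema4d receptor of epithelium, stood at 1.92 to 5.52 CPM in CAL and at 6.70, 5.06, 3.54 and 10.6 in CAL_Dll4i, and Robo2 at 0.467 to 1.45 and at 3.41, 1.78, 0.617 and 3.49. With the log2 keratinocyte sum as a covariate, a setting chosen after seeing these values, 4 of the 57 members instead of 11 had an unadjusted p under 0.05 by edgeR. The share of all genes fell as well, from 7.42% to 2.64%, so the drop was not particular to the members. The estimates then were 0.45 for Epha1, 0.50 for Epha2, 0.33 for Robo2 and 0.42 for Robo1, and Epha5 was at 1.15. The keratinocyte sum itself had a median of 133 CPM in CAL_Dll4i and 5.7 in CAL. The covariate and the inhibition therefore cannot be told apart in this setting. The part of epithelial RNA in the members' differences was not tested. Exons of Epha1 share 236 bases with Zyx on the other strand, which leaves part of its low counts uncertain.

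**Figure D3:**
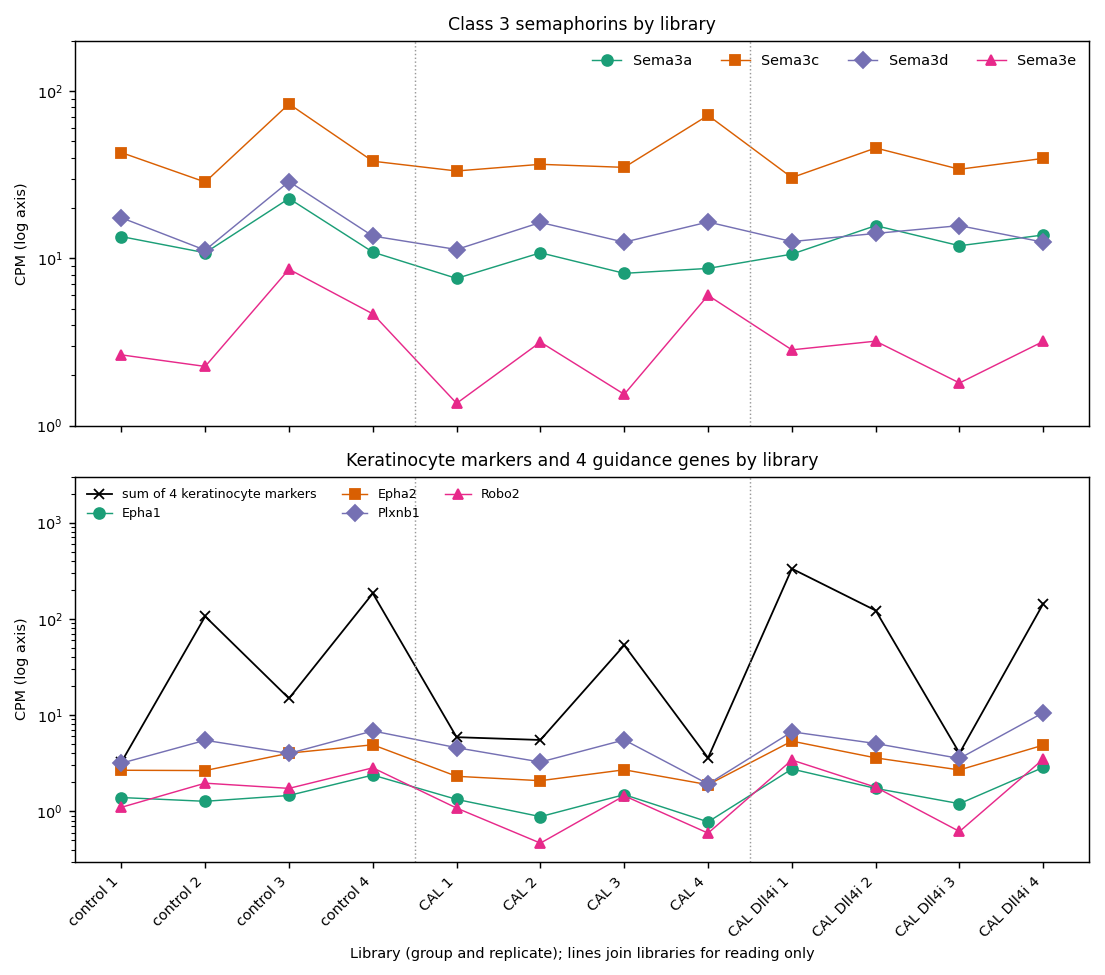
CPM (log axis) in each of the 12 libraries of 4 class 3 semaphorins (top) and of Epha1, Epha2, Plxnb1 and Robo2 with the summed CPM of 4 keratinocyte markers (bottom); lines only join points for reading. The top panel shows Sema3a, Sema3c, Sema3d and Sema3e highest in control replicate 3, and the bottom panel the keratinocyte sum running from 3.24 to 332.

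CAL_Dll4i against control sets grafts with both additions beside grafts with neither. The edgeR test with Benjamini-Hochberg adjustment called 0 members and 0% of all genes, voom with sample weights 0 and 0%, and DESeq2 0 members and 0.329% of all genes. At an unadjusted p under 0.05 by edgeR, 3 members (5.26%) were lower, against 3.06% of all genes, and 1 (1.75%) was higher, against 3.86%. The members were Sema4a, Epha5 and Epha4, lower, and Sema4c, higher; without CAL_Dll4i replicate 3 the count was 1, and without control replicate 4 or any other CAL_Dll4i library it was 2. These shares lie near the background. The groups did not overlap for 1 member, Unc50, lower in CAL_Dll4i (1.75%, against 2.35% of all genes lower and 2.41% higher). It stood at 43.0 to 47.1 CPM in control and 40.8 to 42.5 in CAL_Dll4i. The median log2 fold change was -0.01 over the 57 and 0 over all genes.

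Sema4a, a semaphorin of dendritic cells and macrophages, stood at 82.6, 62.3, 46.9 and 61.9 CPM in control, 53.0, 41.0, 65.4 and 48.2 in CAL, with 56.2, 40.3, 46.0 and 44.3 in CAL_Dll4i. Control replicate 1 was the highest library, and without it the log2 fold change of CAL_Dll4i against control was -0.29 instead of -0.44 ± 0.18 (SE). Sema4c, a plexin B2 ligand, stood at 15.9 ± 1.34, 16.0 ± 0.879 and 18.5 ± 2.29 CPM in control, CAL and CAL_Dll4i (SD, n = 4), a log2 fold change of 0.21 ± 0.10. Epha5 had a log2 fold change of -0.79 ± 0.34 and Epha4 of -0.37 ± 0.16 in this comparison. All 4 had edgeR's Benjamini-Hochberg adjusted p = 0.714.

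**Figure D4:**
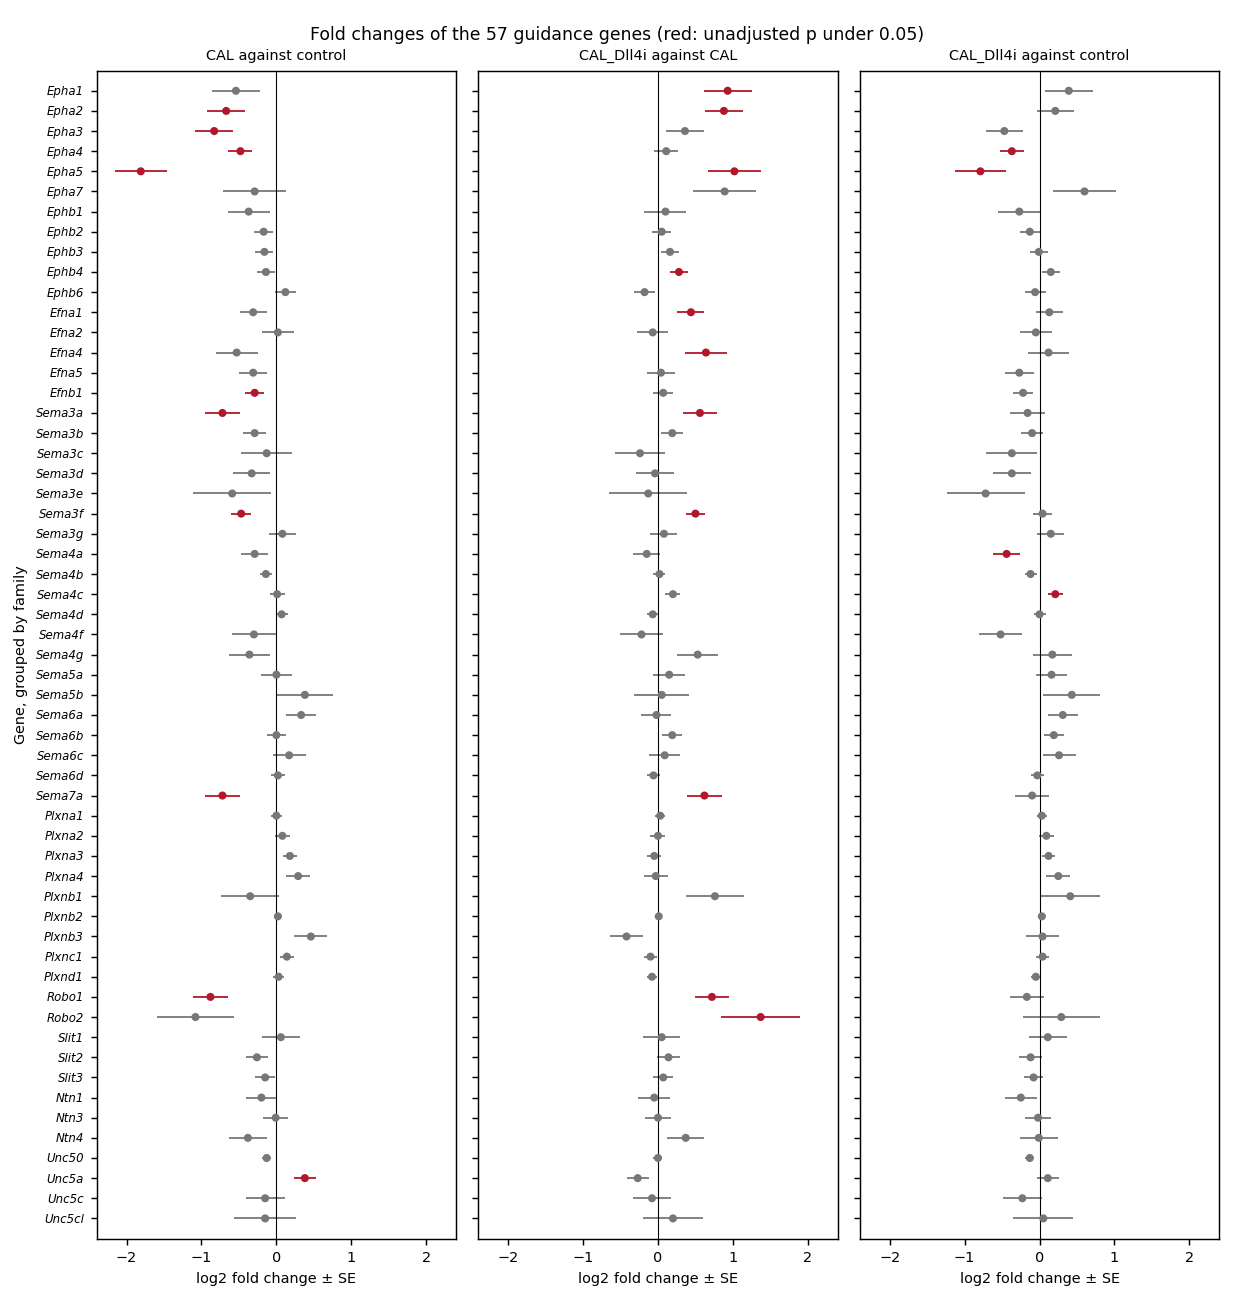
Log2 fold changes (points) with their standard errors (lines) of the 57 genes in the 3 comparisons, from the edgeR fit over all 12 libraries, in red where the unadjusted p was under 0.05. Red points number 10, 11 and 4 from left to right, and the abundant plexins sit close to 0 with short lines in each panel.

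Several class 3 semaphorins varied widely between libraries of the same group. Sema3c, a ligand that acts on endothelium and mesenchyme, stood at 42.9, 28.6, 83.8 and 38.1 CPM in control replicates 1 to 4, 33.3, 36.5, 35.0 and 71.6 in CAL, with 30.4, 45.7, 34.1 and 39.6 in CAL_Dll4i. Sema3e stood at 2.65, 2.26, 8.61 and 4.66 CPM in control, 1.36, 3.16, 1.54 and 6.01 in CAL, with 2.84, 3.20, 1.80 and 3.19 in CAL_Dll4i. Both were highest in control replicate 3 and next highest in CAL replicate 4. Sema3d peaked in control replicate 3 too (28.8 CPM, against 11.2 to 17.5 elsewhere), as did Sema3b (19.2, against 10.9 to 14.0). Control replicate 3 held the highest value of 19 of the 57 members, while it held the highest value of 16.5% of all genes tested. Sema3g, a class 3 member of endothelium, stood at 2.66 ± 0.331, 2.81 ± 0.660 and 2.96 ± 0.467 CPM in control, CAL and CAL_Dll4i (SD, n = 4). Sema6a, an endothelial semaphorin, stood at 15.0 ± 1.47, 18.8 ± 6.58 and 18.6 ± 1.78 CPM, with 27.0 in CAL replicate 1.

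**Figure D5:**
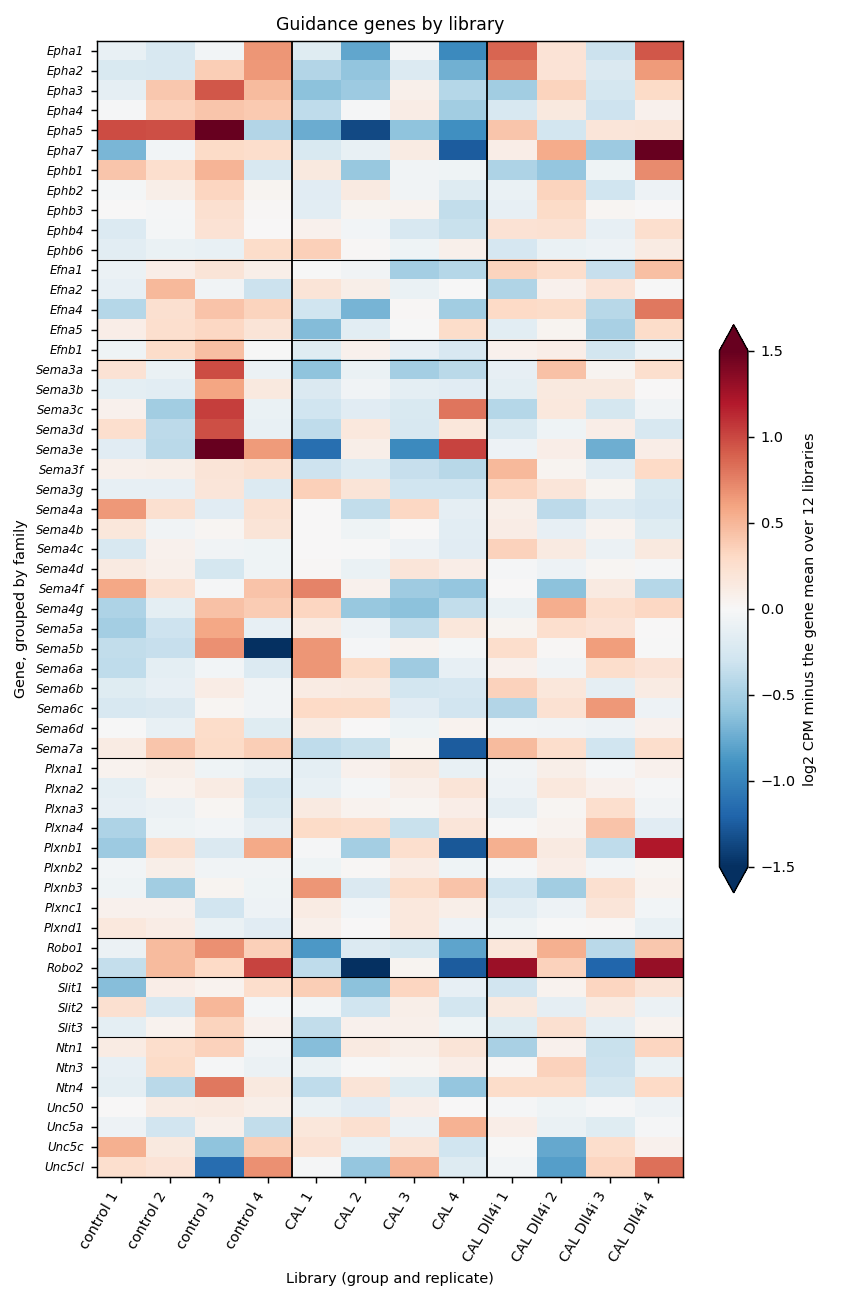
Log2 CPM of each gene minus its mean over the 12 libraries (colour, clipped at 1.5 either way), with libraries in columns by group and genes in rows by family. The plexin rows are mostly pale, control replicate 3 is dark red for Sema3a, Sema3c, Sema3d and Sema3e, and CAL replicate 4 is dark blue for Sema7a, Plxnb1 and Robo2.

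A list of 65 partners and effectors of these families held co-receptors, Robo and netrin regulators and cytoskeletal effectors, and 62 of them were in the table and tested. The list was chosen with earlier results of these data known, so its shares beside those of all genes are description only. In CAL against control edgeR with Benjamini-Hochberg adjustment called 0 of the 62 (smallest adjusted p = 0.0969), and at an unadjusted p under 0.05 by edgeR 7 were higher (11.3%, against 7.01% of all genes) and 13 lower (21.0%, against 7.57%), with a median log2 fold change of 0 over the 62. Among the higher ones were Arhgap39, a GTPase-activating protein that binds Robo (43.9 ± 5.34 CPM in control and 61.9 ± 3.02 in CAL, SD, n = 4), and Evl, an actin regulator of the Ena/VASP family (141 ± 17.4 and 180 ± 4.58). Among the lower ones were Draxin, a netrin antagonist (1.93 ± 0.626 and 0.836 ± 0.192), Enah, another Ena/VASP protein (25.8 ± 5.91 and 14.6 ± 5.14), and the netrin receptor Neo1 (83.0 ± 9.78 and 70.6 ± 6.17). In CAL_Dll4i against CAL 7 were higher (11.3%, against 4.47% of all genes) and 5 lower (8.06%, against 2.95%), with Erbb2, a plexin B partner, at 7.17 ± 0.718 CPM in CAL and 9.43 ± 0.715 in CAL_Dll4i. In CAL_Dll4i against control 6 were higher (9.68%, against 3.86%) and 2 lower (3.23%, against 3.06%). The smallest adjusted p of these 2 comparisons was 0.659 and 0.706 by edgeR with Benjamini-Hochberg adjustment.

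On GRCm38, the assembly of mm10, several of these genes share a chromosome. Epha5 lies on chromosome 5 at 84054761 to 84417818, Sema3f on chromosome 9 at 107681499 to 107710475 and Sema7a on the same chromosome at 57939596 to 57962865. Robo1 lies on chromosome 16 at 72027518 to 73047491, and Epha3 and Robo2 lie on the same chromosome at 63543532 to 63864175 and 73891976 to 75447443. Sema3a, Sema3e and Sema3c lie in that order on chromosome 5, at 13124822 to 13603485, 14025276 to 14256689 and 17574816 to 17730268.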

How the data were processed

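RNA from whole fat grafts was measured in 12 libraries, 4 per group, made with a SureSelectXT RNA Direct kit (probe capture), per the labels' protocols. The submitters' processing notes name HISAT2, StringTie and mm10. Versions and strand use were not given in the sources used here. Estimated counts as deposited are whole numbers, not scaled between libraries by the authors, so rounding changed none. The deposited TPM and FPKM values are the authors' own; TPM served for levels between genes and 1 alternative, and FPKM was not used further.

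Counts were scaled by TMM and filtered with filterByExpr at its defaults (18551 genes kept) in edgeR 4.0.16 under R 4.3.3, and tested by its quasi-likelihood test with robust estimates, all 12 libraries in 1 fit, with Benjamini-Hochberg adjustment over all genes and a threshold of 0.05. Fold changes are on the log2 scale with standard errors (SE) derived from the F statistic, and CPM are TMM-scaled. The alternatives tried were 2 other scalings (RLE, upper quartile), 2 other filters (none, or at least 1 CPM in 4 libraries), 3 other tests (DESeq2 1.42.0, and in limma 3.58.1 voom with weights per sample and log2(TPM + 1)), the 2 groups alone, a replicate block, leaving out each library or the 3 with muscle RNA, and, added after seeing the data, a keratinocyte covariate. The code was tested on simulated counts.

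The members and gene lists were chosen with earlier results of these data known. Members named are those at an unadjusted p under 0.05 (up to 4 per direction and comparison), the highest by TPM in each family and 18 fixed for roles in vessels or fat; other members, such as Sema7a, Robo2, Plxnb1, Sema3b and Sema3d, were named after their values were seen. Positions come from RefSeq GRCm38.p6 and exon overlaps from GENCODE M21. Figures used Python 3.11.15 and matplotlib 3.10.9. One of the marker lists is not reported here.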

Additional observations from a re-analysis of the deposited data

Results flagged for a closer look

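Libraries that stood far from the other 3 of their group were looked for in the 28 named genes, 84 sets of 4 libraries in all, and 6 were found, where chance gives about 1 in 20 sets. Epha1 was at 2.38 CPM in control replicate 4, with 1.46 or less in the other controls. Keratinocyte markers summed to 184 CPM there, the highest of the controls. In control replicate 2 they summed to 106 CPM, while Epha1 was at 1.27 CPM, the lowest of the controls. In CAL_Dll4i replicate 3, a library with muscle RNA, Ephb4 was at 19.3 CPM and Ntn4 at 5.99, with at least 24.4 and 8.69 in the others of its group. Ntn1 was at 6.77 CPM in CAL replicate 1, another library with muscle RNA, against 11.2 or more in the others. CAL replicate 2, with more muscle RNA (169 CPM against 84.6), had Ntn1 at 11.5 CPM. Plxnb2 was at 438 CPM in control replicate 2, while the others of its group lay between 396 and 400. Sema3c was at 71.6 CPM in CAL replicate 4, against 36.5 or less.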

How the results depend on the processing

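Every one of the 25 log2 fold changes of members at an unadjusted p under 0.05 kept its sign in all of its alternatives (574 values). The alternatives refit the same libraries in which these members were picked by their p, so a kept sign is no independent support. Of these values 6 passed the adjusted threshold: Epha5, Robo1, Sema3f, Epha3 and Sema7a by DESeq2, and Epha5 by edgeR without control replicate 4, all in CAL against control. DESeq2 called 616 genes and 5 members in that comparison, 1 gene in CAL_Dll4i against CAL and 61 in CAL_Dll4i against control, and voom with sample weights called 72 genes in the first. For CAL against control, edgeR called 1 gene with all libraries, 0 with only the 2 groups and 0 without the libraries with muscle RNA, which keeps only CAL replicates 3 and 4. Leaving out 1 library at a time gave 0 to 6 genes and 0 to 1 members there. Members at an unadjusted p under 0.05 in CAL_Dll4i against CAL numbered 11, then 7 on the log2(TPM + 1) scale, 4 with the keratinocyte covariate, and 6 to 15 with 1 library left out (6 without CAL replicate 4 or CAL_Dll4i replicate 4, 7 without CAL_Dll4i replicate 2). The share of all genes was 7.42% in the main fit, 8.09% on the log2(TPM + 1) scale and 2.64% with the covariate. In CAL_Dll4i against control they numbered 4, and 1 to 4 with 1 library left out. The replicate block gave 2 members there, 9 in CAL_Dll4i against CAL and 11 in CAL against control, and changed no call. Same-numbered libraries deviated together in 2 of 12 pairs (correlation over 0.1, range -0.385 to 0.144), and libraries of unlike number reached 0.435. Whether same-numbered libraries share an origin cannot be told from these correlations. The cause of these shifts was not tested. Depth limits mainly the 12 members under 1 TPM.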
